A study of Mus musculus with 12 samples.

Results

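The genes described here encode 10 enzymes that supply the cell with NADPH or belong to the pentose phosphate pathway: G6pdx, Pgd, H6pd, Tkt, Taldo1, Rpia, Me1, Me3, Idh1 and Nadk. They were taken by symbol from the deposited table of normalized counts, where each had 1 row, so that they made up 10 of 20587 genes. RNA-Seq was performed on the 4T1 line, derived from a mammary carcinoma of the mouse, with 3 libraries in each of 4 groups. Control cells (Ctr) were grown in medium with serine and glycine and were not irradiated. Cells starved of serine and glycine (SG) were grown in the same formulation without the pair of amino acids (-SG). Irradiated cells (IR) were kept with serine and glycine and received 5 Gy of X-rays, and the last group (IR -SG) received the same dose without serine and glycine. Irradiated cells were collected 24 h after the dose. Per the study's methods, all experimental media shared a base with dialysed serum. All 12 libraries came from a single experiment on a single cell line, and p-values measure the spread between the triplicates of that experiment.

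NADPH is the electron donor of reductive biosynthesis and of the glutathione and thioredoxin systems. The oxidative branch of the pentose phosphate pathway makes it from glucose-6-phosphate in a pair of dehydrogenase steps, and the non-oxidative branch interconverts the resulting sugar phosphates, delivering ribose-5-phosphate for nucleotides or returning carbon to glycolysis. Outside that pathway, malic enzymes and isocitrate dehydrogenases reduce NADP+, the folate pathway that uses serine does so too, and NAD kinase makes the NADP+ that all of them depend on. The comparisons below ask how the transcripts of these enzymes differed when the supply of serine and glycine, radiation, or both were changed.

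The genes lay on 7 chromosomes (GRCm38, GENCODE annotation). G6pdx is X-linked (X:74409483-74429194, minus strand). Pgd (4:149149991-149166771, minus strand), H6pd (4:149979475-150009023, minus strand) and Nadk (4:155562378-155591001, plus strand) share chromosome 4, and Taldo1 (7:141392199-141402968, plus strand) and Me3 (7:89632392-89854359, plus strand) share chromosome 7. The remaining genes are Idh1 (1:65158616-65186500, minus strand), Rpia (6:70765720-70792232, minus strand), Me1 (9:86581371-86695953, minus strand) and Tkt (14:30548359-30574720, plus strand). Each gene was counted as a whole, so that transcripts of a gene are not told apart.

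The promoters of 4 genes are shown: those whose transcripts differed most in opposite directions, Me3 and Idh1, and those of the 2 other genes with a match to a searched motif upstream of the start site, G6pdx and Me1. Each is the 250 bases before a RefSeq transcription start site, read 5′ to 3′ on the strand of the gene (GRCm38.p6), and capitals mark a motif match. Idh1 and Me1 each have a second RefSeq promoter, which is not shown and holds no match.
Me3 (chr7:89632568-89632817, plus strand): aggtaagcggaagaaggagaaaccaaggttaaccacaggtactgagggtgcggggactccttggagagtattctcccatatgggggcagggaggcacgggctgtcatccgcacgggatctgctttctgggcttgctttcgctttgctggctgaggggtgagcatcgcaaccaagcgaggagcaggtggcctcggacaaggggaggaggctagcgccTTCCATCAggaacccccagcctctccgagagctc
Idh1 (chr1:65186480-65186729, minus strand): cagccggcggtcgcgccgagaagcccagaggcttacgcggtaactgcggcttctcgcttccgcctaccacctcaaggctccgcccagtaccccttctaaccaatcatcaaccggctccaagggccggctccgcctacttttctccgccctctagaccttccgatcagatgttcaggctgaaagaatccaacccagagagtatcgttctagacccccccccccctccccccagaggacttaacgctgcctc
G6pdx (chrX:74428881-74429130, minus strand): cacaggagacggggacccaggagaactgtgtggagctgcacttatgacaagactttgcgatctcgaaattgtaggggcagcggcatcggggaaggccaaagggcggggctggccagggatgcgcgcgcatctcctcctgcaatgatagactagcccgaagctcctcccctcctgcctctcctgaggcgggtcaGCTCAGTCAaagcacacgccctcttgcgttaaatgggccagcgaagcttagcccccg
Me1 (chr9:86695915-86696164, minus strand): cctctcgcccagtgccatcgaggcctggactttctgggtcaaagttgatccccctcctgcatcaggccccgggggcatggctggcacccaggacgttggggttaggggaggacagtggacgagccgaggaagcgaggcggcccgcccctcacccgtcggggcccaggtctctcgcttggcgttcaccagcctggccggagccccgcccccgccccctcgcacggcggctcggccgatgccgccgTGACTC
A set of 3 motifs was searched on both strands of the 300 bases from 250 before to 50 after each start site: TGACNNNGC, the core of the antioxidant response element bound by NRF2, TGATGNAA, the core of the composite element bound by ATF4 with C/EBP proteins, and TCACNCCAC, a form of the sterol regulatory element. The 3 motifs do not overlap each other in the sequences shown. The capitals in G6pdx are a match to TGACNNNGC on the opposite strand that begins 57 bases before the start site. Those in Me1 are the first 6 bases of a match on the gene's own strand that runs over the start site. The capitals in Me3 are a match to TGATGNAA on the opposite strand that begins 34 bases before the start site, and the Idh1 window shown holds no match. All 10 genes had at least 1 promoter in the RefSeq table, 14 in all. TGACNNNGC stood in 3 of these 14 (G6pdx, Me1 and the second promoter of Pgd, there past the start site) and in 12.4% of all 32851 promoters. TGATGNAA stood in 1 of 14 and in 3.97% of all promoters, and TCACNCCAC in 0 of 14 and in 1.24%. A match is a description of the letters only. The median GC content of the 14 promoters was 60.7%, against 52.7% for all promoters.

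The libraries held between 12540160 and 20066659 reads in genes, with a median of 16718006. The epithelial markers Epcam, Krt8, Krt18, Krt19, Cdh1 and Krt14 were all detected, from 930.0 to 22173 normalized counts, while the leukocyte and endothelial markers Ptprc, Pecam1 and Cdh5 lay between 0 and 10.5. Of the 8 markers listed for other cells, 6 had a row. Their summed level ran from 203 to 312 in Ctr cells, 260 to 333 in -SG cells, 499 to 547 in IR cells and 417 to 468 in IR -SG cells, most of it Pdgfra (179 to 468). For the epithelial markers the sum ran from 47396 to 47841 in Ctr cells, 70940 to 77815 in -SG cells, 50432 to 51644 in IR cells and 68222 to 70024 in IR -SG cells. The part of either sum in the results below was not tested. The starved libraries differed most among themselves. The deviation of -SG replicate 6 from the other 2 had the largest spread over genes of the 12 libraries (SD 0.270 on the log2 scale) and correlated with the GC content of genes (r = 0.43 across 11661 genes, which are not independent replicates). For -SG replicate 5 the same r was -0.40, with an SD of 0.226. Replicate 6 had the highest value of the 3 for 7 of the 10 enzymes. Its deviation from the group mean was largest for Me3 (0.14 on the log2 scale), G6pdx (0.13), Taldo1 (0.12), Rpia (0.10) and Tkt (0.09). Values without it are given below for G6pdx and Taldo1 only.

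The genes differed widely in level. In Ctr cells, Nadk (88.6 ± 1.51 RPKM, SD, n = 3; RPKM counts reads per kilobase of merged exons, scaled to the reads in genes of each library) and Tkt (87.3 ± 1.38) were the most abundant per length, and their difference lay within the spread. Taldo1 (56.8 ± 0.934), G6pdx (52.6 ± 0.882) and Pgd (51.6 ± 0.638) followed, the latter pair again within their spread, and then Idh1 (44.7 ± 1.76). Me1 (14.8 ± 0.376), Rpia (10.6 ± 0.147) and H6pd (7.79 ± 0.191) were lower, and Me3 was barely expressed (0.146 ± 0.00980). This order depends on the length used. With the length of the longest coding transcript in place of all merged exons, Tkt (199 ± 3.15) and Pgd (150.1 ± 1.86) came before Nadk (105 ± 1.79), while Me3 stayed lowest (0.476 ± 0.0319).

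**Figure D1:**
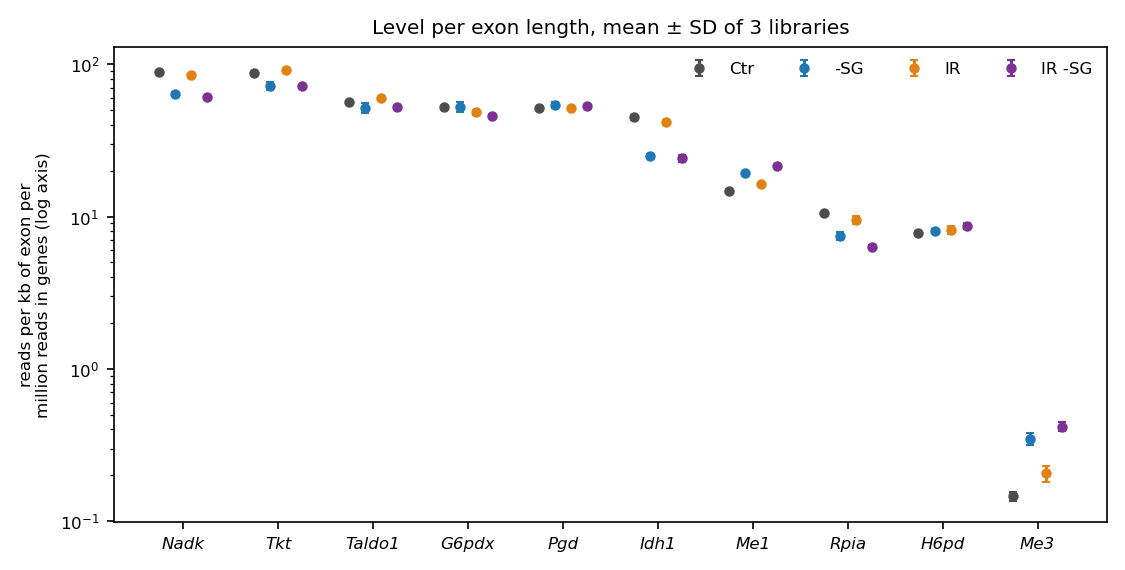
Level of each gene per exon length (RPKM over merged exons, log axis), mean ± SD of 3 libraries for Ctr, -SG, IR and IR -SG. Nadk and Tkt sit near 90 in Ctr and Me3 lies below 0.5 in every group, while Idh1 and Me1 approach each other in the groups without serine and glycine.

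The first comparison asks what SG starvation alone changed (-SG against Ctr). None of the 3 genes of the oxidative branch passed the test, all 3 genes of the non-oxidative branch fell, the cytosolic isocitrate dehydrogenase Idh1 fell most and NAD kinase fell with it, and both malic enzymes rose. In counts, 2 of the 10 genes rose and 5 fell (limma on log2 of the normalized count plus 1, Benjamini-Hochberg adjusted p under 0.05 over 11663 genes). Across all genes tested, 30% rose and 28.6% fell. The median log2 fold change was -0.11 for the 10 genes and 0.01 for all genes tested. In a bulk measurement, a change in the number of cells of a kind cannot be told apart from a change in RNA per cell.

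Within the oxidative branch, G6pdx encodes glucose-6-phosphate dehydrogenase, the first and rate-limiting step of the pathway. It was measured at 2814, 2728 and 2790 normalized counts in Ctr and at 2623, 2561 and 2958 in -SG. The starved libraries lay on both sides of the controls, with replicate 6 above all of them. The log2 fold change was -0.04 (SE 0.05, 95% interval -0.14 to 0.06, limma adjusted p = 0.536). Without replicate 6 it was -0.10 and passed the threshold (adjusted p = 0.0204), and that was the single setting of 25 in which it did.

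Pgd encodes 6-phosphogluconate dehydrogenase, the second NADPH-producing step. Its values were 5623, 5726 and 5776 in Ctr and 5486, 5892 and 6050 in -SG, and the groups overlapped (log2 fold change 0.02, 95% interval -0.05 to 0.10). H6pd, which carries out the first steps of the same route inside the endoplasmic reticulum, also overlapped, at 710.2, 680.2 and 708.1 in Ctr and 722.9, 685.3 and 718.2 in -SG. Its log2 fold change was 0.02 (95% interval -0.10 to 0.14). Neither gene passed the threshold in any of the 25 alternatives.

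In the non-oxidative branch all 3 genes fell. Rpia encodes ribose-5-phosphate isomerase, which makes ribose-5-phosphate. It fell from 983.4, 970.4 and 958.8 in Ctr to 651.0, 642.0 and 716.1 in -SG, which is -0.54 on the log2 scale (SE 0.06, limma adjusted p = 5.74e-07). Every starved library lay below every control library.

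Tkt, transketolase, moves carbon units between sugar phosphates and is the most abundant transcript of this branch. Its values went from 11069, 10811 and 11133 to 8597, 8552 and 9447 without overlap, by -0.31 on the log2 scale (SE 0.04, adjusted p = 2.6e-06). Taldo1, transaldolase, carries out the companion reaction and fell least. It went from 2124, 2074 and 2139 to 1793, 1785 and 2035, again without overlap (-0.18, SE 0.05, adjusted p = 0.00328), with the highest starved library, replicate 6, close to the lowest control. Without that library the log2 fold change of Taldo1 was -0.24.

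The dehydrogenases outside the pathway moved in opposite directions. Idh1 makes NADPH in the cytosol by oxidising isocitrate. Its values were 2163, 2181 and 2030 in Ctr and 1185, 1148 and 1161 in -SG, so that starved cells held 54.8% of the control mean. On the log2 scale this was -0.87 (SE 0.05, adjusted p = 1.74e-10), the largest fall among the 10 genes, and the starved libraries lay far below the controls.

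Me1, the cytosolic malic enzyme, which converts malate to pyruvate, rose from 954.1, 1004 and 971.1 to 1233, 1246 and 1229. The starved libraries were close to each other and all above the controls (log2 fold change 0.34, SE 0.04, adjusted p = 1.45e-06). Me3, a mitochondrial NADP-dependent malic enzyme, went from 33.8, 37.2 and 38.7 to 78.5, 83.3 and 94.1, or 1.20 on the log2 scale (SE 0.13, adjusted p = 7.23e-07). It had the largest change and the lowest level of the 10 genes, and its groups did not overlap.

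Nadk, the cytosolic NAD kinase, phosphorylates NAD+ to NADP+. Its values fell from 5598, 5668 and 5801 to 4044, 3879 and 4075 (log2 fold change -0.51, SE 0.03, adjusted p = 2.48e-09). All starved libraries stood below all controls, at 70.3% of the control mean.

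**Figure D2:**
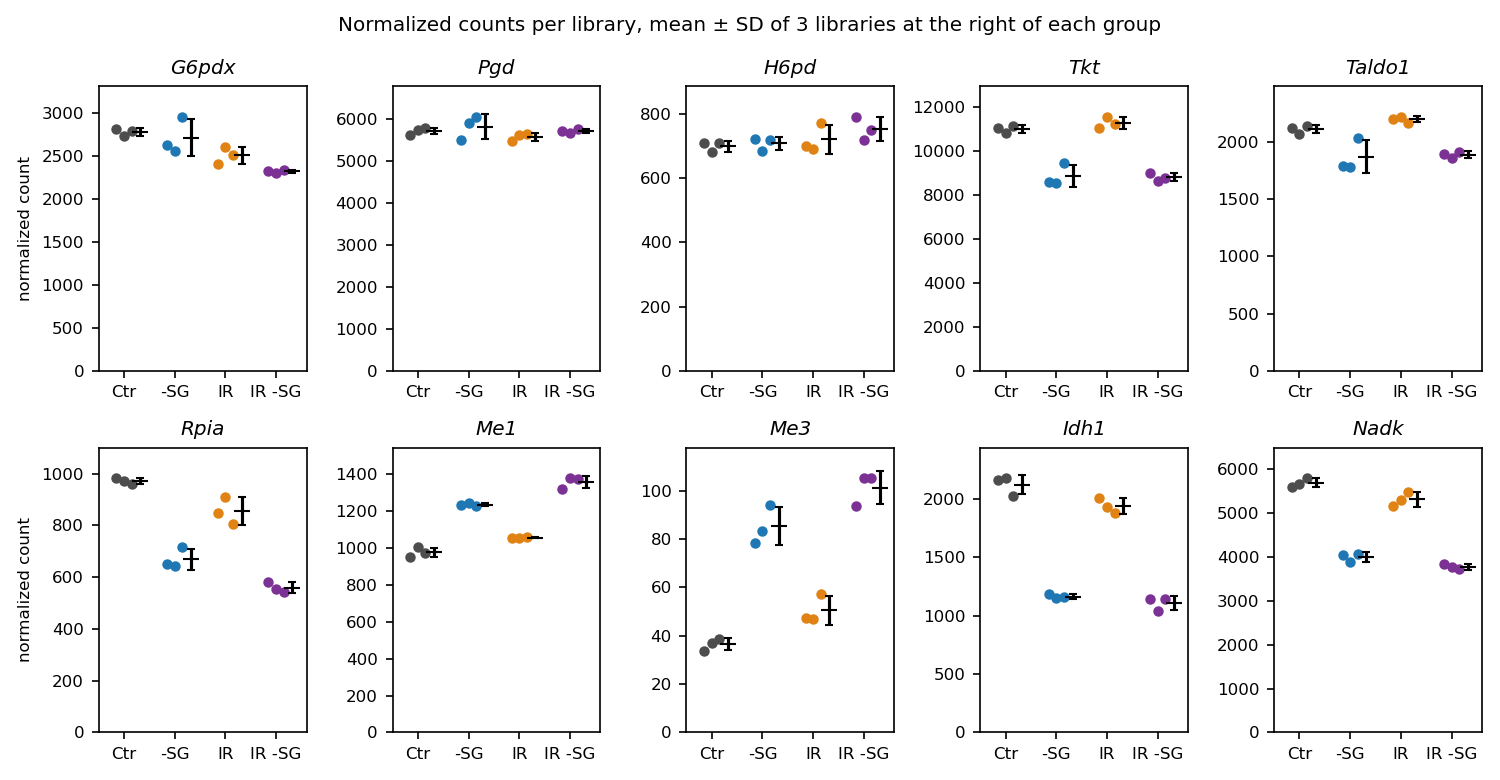
Normalized counts of each gene in each of the 12 libraries (points), with the mean ± SD of the 3 libraries of a group at its right; each vertical axis starts at 0 and has its own scale. Idh1, Nadk, Tkt and Rpia are lower and Me1 and Me3 higher in both groups without serine and glycine, and Pgd and H6pd show no such step.

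Because Idh1 and Me1 changed in opposite directions, their ratio was also followed within each library. Per exon length, Ctr libraries held 3.02 ± 0.122 Idh1 reads for each Me1 read (SD, n = 3). Starved libraries held 1.31 ± 0.0274, irradiated ones 2.55 ± 0.0921 and those with both treatments 1.13 ± 0.0823. It ranged from 2.47 to 3.15 in the 6 libraries with serine and glycine and from 1.04 to 1.33 in the 6 without. The ratio shows unequal change of the 2 transcripts and was chosen after their values were seen, so no test is given.

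Radiation alone gave smaller log2 fold changes than starvation for each of the 7 genes that starvation had changed, a difference that was not tested. Of the 10, 2 rose and 4 fell, against 28.9% and 24.9% of all genes tested, and the log2 fold changes that passed the threshold lay between -0.19 and 0.45. The median was 0.00 for the 10 genes and 0.00 for all genes tested. These are the least stable calls of the 6 comparisons. All 6 genes lost the call under at least 1 alternative setting, and DESeq2 called 0 of 10 higher.

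G6pdx went from 2814, 2728 and 2790 in Ctr to 2407, 2599 and 2512 in IR. The irradiated libraries were all below the controls (log2 fold change -0.15, SE 0.05, adjusted p = 0.0148). The adjusted p was past the threshold in 3 of 26 alternatives, without Ctr replicate 1, without IR replicate 1 (adjusted p = 0.0716) and under quantile normalization. A 2-fold threshold left 0 of the 10 genes lower. Rpia fell by 0.19 on the log2 scale (SE 0.06, adjusted p = 0.0113), from 958.8 to 983.4 in Ctr to 846.6, 911.6 and 804.4 in IR. Without IR replicate 3, the lowest of these, its adjusted p was 0.066.

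Idh1 (2011, 1932 and 1881 in IR) and Nadk (5154, 5292 and 5489 in IR) also lay below every control library, with log2 fold changes of -0.13 (SE 0.05) and -0.10 (SE 0.03). Each kept an adjusted p under the threshold in 20 of 26 alternatives. Leaving out Ctr replicate 1 or 2, or IR replicate 2 or 3, ended the call of Idh1, and leaving out Ctr replicate 2 or 3, or IR replicate 1 or 2, ended that of Nadk. Both calls also ended with libraries scaled to the same total and under quantile normalization.

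Me1 rose slightly, to 1055, 1058 and 1059 (log2 fold change 0.11, SE 0.04, adjusted p = 0.0208). The call was lost without Ctr replicate 1 or 3 or IR replicate 2 or 3, where the log2 fold change was 0.10 to 0.11. It was also lost with DESeq2. Me3 rose to 47.3, 46.8 and 57.5 (0.45, SE 0.13, adjusted p = 0.00773), above all controls. Under quantile normalization the log2 fold change of Me3 was -0.021 (adjusted p = 0.903), so its direction after radiation alone depended on the scaling. DESeq2 did not call Me3 either. Tkt (0.04), Taldo1 (0.06), Pgd (-0.03) and H6pd (0.04) did not pass the threshold, and the 95% intervals of all 4 stayed between -0.11 and 0.16.

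After the combined treatment, 2 of the 10 genes rose and 6 fell relative to Ctr, against 37.2% and 32.5% of all genes tested. The median log2 fold change was -0.21 for the 10 genes and 0.03 for all genes. The genes that rose were Me1 and Me3, and those that fell were G6pdx, Tkt, Taldo1, Rpia, Idh1 and Nadk.

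Rpia was lower after both treatments than after either one. It was at 583.3, 553.0 and 543.0 in IR -SG, below all other libraries of the series and at 57.7% of the control mean (log2 fold change -0.79, SE 0.06, adjusted p = 2.82e-09). Idh1 was at 1147, 1037 and 1142, 52.2% of the control mean (-0.94, SE 0.05, adjusted p = 3.52e-11). These lay just below the starved libraries, and the difference between the groups did not pass the threshold, as given below.

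Nadk was at 3839, 3762 and 3715, also below every starved library (-0.59 against Ctr, SE 0.03, adjusted p = 2.07e-10). Me1 reached its highest values, at 1323, 1381 and 1376 (0.48, SE 0.04, adjusted p = 1.46e-08). Me3 was at 93.5, 105 and 105, 2.72 times the control on the scale of the fit (1.44, SE 0.13, adjusted p = 4.41e-08). G6pdx was at 2322, 2301 and 2339, below every library of the other groups (-0.26, SE 0.05, adjusted p = 0.000141). After starvation alone it had passed the threshold only when -SG replicate 6 was left out.

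Tkt (-0.32, SE 0.04) and Taldo1 (-0.16, SE 0.05) were lower by about as much as in -SG. Pgd stayed at the control level (0.00, 95% interval -0.08 to 0.07). H6pd was at 791.8, 718.5 and 750.5, above all controls, but did not pass the threshold (0.11, 95% interval -0.01 to 0.22, adjusted p = 0.0949). It passed in 2 of 25 alternatives, when each library was scaled to the same total and when only the compared groups were fitted. The groups -SG, IR and IR -SG are compared here with the same 3 control libraries.

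**Figure D3:**
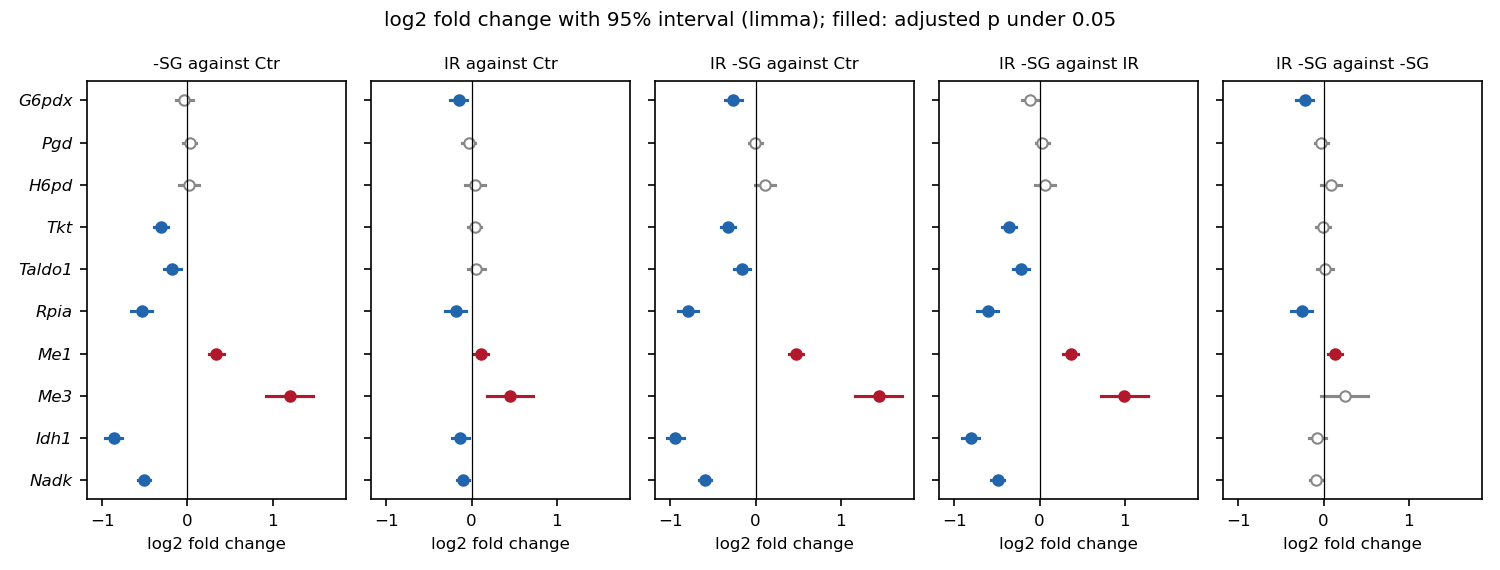
log2 fold change of each gene (point) with its 95% interval (line) in 5 comparisons, from limma on log2(normalized count + 1); filled points have an adjusted p under 0.05, red higher and blue lower. Tkt, Taldo1, Rpia, Idh1 and Nadk lie left of 0 and Me1 and Me3 right of 0 in each of the 3 comparisons in which serine and glycine were removed, and in the comparison of IR -SG with -SG only G6pdx, Rpia and Me1 are filled.

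SG starvation was also examined among irradiated cells (IR -SG against IR). Here 2 of the 10 genes rose and 5 fell, against 28.9% and 28.1% of all genes tested. They were those called in -SG against Ctr. Idh1 changed by -0.81 (SE 0.05), Rpia by -0.61 (SE 0.06), Nadk by -0.49 (SE 0.03), Tkt by -0.36 (SE 0.04) and Taldo1 by -0.22 (SE 0.05) on the log2 scale, and Me1 by 0.36 (SE 0.04) and Me3 by 0.99 (SE 0.13). The median was -0.16 for the 10 genes and 0.01 for all genes tested. Each of these 7 calls had an adjusted p under the threshold in every alternative setting in which the gene was tested. G6pdx was at the margin (-0.11, 95% interval -0.21 to -0.01, adjusted p = 0.0591), below the threshold in 6 of 25 alternatives.

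Radiation among starved cells (IR -SG against -SG) changed 3 of the 10 genes, 1 up and 2 down, against 23.8% and 19.3% of all genes tested. G6pdx fell from 2623, 2561 and 2958 to 2322, 2301 and 2339 (-0.22, SE 0.05, adjusted p = 0.00137), and the groups did not overlap. Without -SG replicate 6, the highest of the starved libraries, its adjusted p was still under the threshold. That held in all 26 alternatives, at log2 fold changes of -0.26 to -0.16. Rpia fell by 0.26 on the log2 scale (SE 0.06, adjusted p = 0.00178) and Me1 rose by 0.14 (SE 0.04, adjusted p = 0.00958). For both, the adjusted p was also under the threshold in all 26 alternatives. A 2-fold threshold, counted there with the adjusted p of the main fit, left 0 of the 10 genes higher and 0 lower. The median was -0.02 for the 10 genes and 0.01 for all genes tested. Nadk (-0.08, adjusted p = 0.0584) lay just past the threshold, and passed it with edgeR and DESeq2, with TMM scaling and without -SG replicate 5. Me3 (0.25, 95% interval -0.03 to 0.52), Idh1 (-0.07), Tkt (-0.01), Taldo1 (0.02), Pgd (-0.03) and H6pd (0.09) did not pass it.

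Whether radiation acted differently without serine and glycine was asked with the interaction of radiation and medium. In none of the 10 genes did it pass the threshold (limma, 0 higher and 0 lower, against 4.2% and 7.17% of all genes tested). The unadjusted p was under 0.05 in 0 of 10 and was lowest at 0.28, and edgeR and DESeq2 also called 0. The interaction terms ran from -0.20 for Me3 (95% interval -0.59 to 0.18) to 0.06 for Idh1 (95% interval -0.08 to 0.20). For G6pdx it was -0.07 (95% interval -0.22 to 0.07), and -0.010 without -SG replicate 6. Over the alternatives it ran from -0.11 to -0.010 for G6pdx and from -0.26 to 0.13 for Me3, with 0 calls. The intervals of the 9 genes other than Me3 lay between -0.24 and 0.21, which leaves room for differences of that size in the response to radiation. The median was -0.02 for the 10 genes and -0.01 for all genes tested.

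The share of each gene's spread over the 12 libraries that goes with medium or radiation describes the same layout, with no test. Medium took 97.3% of the sum of squares for Idh1, 95.5% for Nadk, 94.4% for Tkt, 87.4% for Me1, 87.3% for Me3, 83.9% for Rpia and 79.1% for Taldo1. For G6pdx, medium took 10.2% and radiation 66.4%, and G6pdx was the only one of the 10 with its largest share on radiation. These shares include -SG replicate 6 and were not computed without it. Radiation also took 12.6% for Rpia, 11.3% for Me1 and 8.87% for Me3. For Pgd and H6pd the largest share, 70.9% and 61.8%, lay between libraries of the same group.

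**Figure D4:**
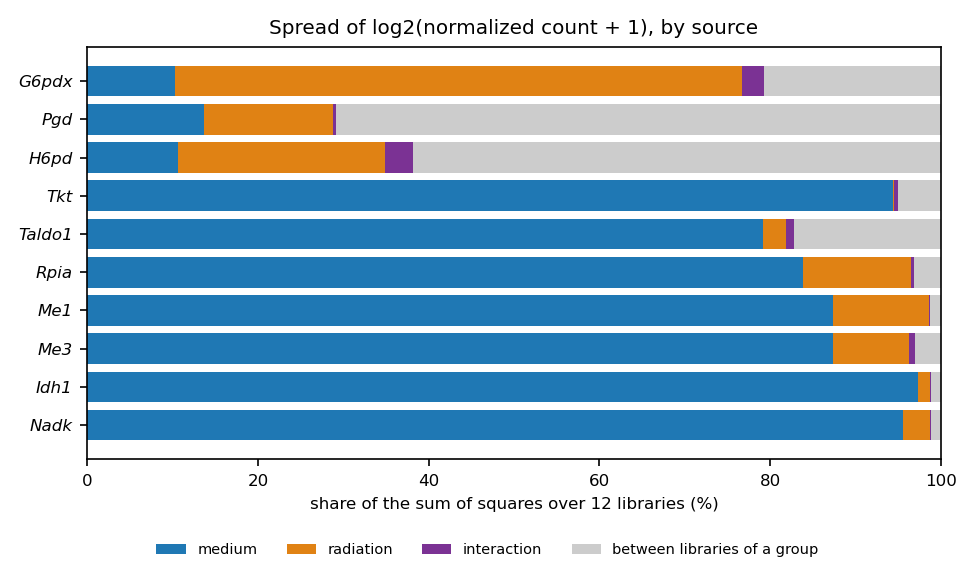
Share (%) of the sum of squares of log2(normalized count + 1) over 12 libraries that goes with medium, radiation, their interaction and the differences between libraries of a group, for each gene. Medium takes over 79% for 7 genes, radiation 66.4% for G6pdx, and the spread within groups 70.9% for Pgd and 61.8% for H6pd.

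The profiles of the genes over the 12 libraries fell into the same arrangement, given as a description, since the points share libraries and groups. Idh1 and Nadk had a Pearson r of 0.98 on log2 values, Me1 and Me3 of 0.98, and Tkt and Taldo1 of 0.96. Rpia and Me1 ran against each other (r = -0.98), as did Nadk and Me1 (r = -0.98). G6pdx had its highest r with Rpia (0.65). Outside the lists examined, the genes most alike were Fdps (r = 0.99), of sterol synthesis, and St7l (0.99) for Idh1, Idh3a (1.00), a subunit of the NAD-dependent isocitrate dehydrogenase, and Tmem97 (1.00) for Nadk, and the lysyl-tRNA synthetase gene Kars (0.99) and Poldip2 (0.99) for Tkt. They were Srsf9 (0.99) and Ppa1 (0.99) for Rpia, Eef1b2 (0.99) and Apbb3 (0.98) for Taldo1, Kank2 (0.99) and Nfatc1 (0.99) for Me1, and Zxdc (0.99) and Scpep1 (0.99) for Me3. For G6pdx they were Eif2b4 (0.98) and Mif (0.97). For Pgd (Pole3, 0.90, and Pofut2, 0.86) and H6pd (Lnx2, 0.79, and Rrbp1, 0.78) the best matches were weaker.

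Other genes of the same metabolism were counted from 4 lists. These counts stand beside the shares of all genes tested that rose and fell, which were 30% and 28.6% in -SG, 28.9% and 24.9% in IR, and 37.2% and 32.5% in IR -SG relative to Ctr. They were 28.9% and 28.1% in IR -SG against IR, 23.8% and 19.3% in IR -SG against -SG, and 4.2% and 7.17% in the interaction. Of 9 other pentose phosphate genes tested, 0 rose and 5 fell in -SG, 1 rose and 2 fell in IR, and 1 rose and 5 fell in IR -SG relative to Ctr. Starvation in irradiated cells gave 0 and 5, radiation in starved cells 1 and 2, and the interaction 0 and 0. Dera, the deoxyribose-phosphate aldolase, fell by 0.63 (SE 0.06) on the log2 scale in -SG and by 0.61 (SE 0.06) in IR -SG. Pgm2, listed by its symbol, fell by 0.45 (SE 0.05) in -SG, and Prps1, which turns ribose-5-phosphate into PRPP, fell by 0.68 (SE 0.04) in IR -SG. Shpk, sedoheptulose kinase, was low, at group means of 4.55 to 23.3 normalized counts. On the log2 scale it stood at 0.84 (SE 0.38, adjusted p = 0.0669) in -SG and rose by 2.26 (SE 0.38) in IR and by 1.83 (SE 0.38) in IR -SG, and IR -SG against IR did not pass the threshold (-0.43).

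Of 8 other genes tested from the list of NADPH sources, 2 rose and 5 fell in -SG, 0 and 6 in IR, and 1 and 5 in IR -SG. The counts were 2 and 5 in IR -SG against IR, 1 and 4 in IR -SG against -SG, and 0 and 0 in the interaction. The list takes in Nadk2, an NAD kinase, which makes NADP+ and not NADPH. It also holds the malic enzyme Me2, whose use of NADP+ was not examined. Nadk2 and Me2 are among the 5 that fell in -SG. The genes that rose in -SG were the mitochondrial folate enzymes Aldh1l2 (log2 fold change 3.50, SE 0.10) and Mthfd2 (0.48, SE 0.04). The cytosolic folate enzyme Mthfd1 fell by 0.58 (SE 0.04) in -SG and by 0.90 (SE 0.04) in IR -SG. In IR -SG, Aldh1l2 was higher by 3.82 (SE 0.10), and Mthfd2l, a mitochondrial relative of Mthfd2, fell by 0.82 (SE 0.10).

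Of 17 enzymes that consume NADPH, 4 rose and 9 fell in -SG, 6 and 4 in IR, 5 and 8 in IR -SG, 3 and 11 in IR -SG against IR, 5 and 4 in IR -SG against -SG, and 3 and 2 in the interaction. Nqo1, a quinone reductase, rose by 1.5 (SE 0.07) in -SG and 1.46 (SE 0.07) in IR -SG, and Blvrb, a biliverdin reductase, by 0.92 (SE 0.17) and 1.05 (SE 0.17). Nqo1 also rose in IR (0.52, SE 0.07), and its interaction was -0.56 (SE 0.10, limma adjusted p = 0.00129). The carbonyl reductase Cbr3, at group means of only 2.54 to 11.6 normalized counts, rose by 1.84 (SE 0.40) in IR and by 1.44 (SE 0.40) in IR -SG, and stood at 0.19 (SE 0.40, adjusted p = 0.702) in -SG. Of 2 NADPH phosphatases, Noct fell in -SG (-0.39, SE 0.05) and IR -SG (-0.26, SE 0.05), and Hddc3 had log2 fold changes of 0.46 (SE 0.22, adjusted p = 0.0808) and 0.56 (SE 0.22, adjusted p = 0.0284). Noct also rose in IR (0.32, SE 0.05).

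Reads of some of the genes can be shared with other loci. Of the 36-base windows of the longest coding transcript, as long as 1 read of a pair, 39.6% in Me1 and 19.1% in Taldo1 also occur in a transcript of another gene. Most of them are shared with the processed pseudogenes Gm7049 (30.2% of windows, 65.2 to 119.5 normalized counts) and Gm17823 (19.1%, 54.1 to 78.3). In G6pdx the share was 15.4%, mainly with the copy G6pd2 (12.4%, 14.9 to 34.7 normalized counts), and in Me3 it was 8.61%, mainly with the antisense gene A230065N10Rik. It was 0 in Pgd, Tkt, Rpia, H6pd, Idh1 and Nadk. How reads with several matches were counted was not stated in the sources used, and the values of Me1, Taldo1, G6pdx and Me3 are uncertain to that extent.

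G6pdx also shares 418 exonic bases (13.6% of its length) with Ikbkg, on the opposite strand. Ikbkg rose from 727 ± 2.12 normalized counts in Ctr (SD, n = 3) to 1627 ± 112 in -SG cells, 867 ± 4.54 in IR cells and 1721 ± 106 in IR -SG cells. The library kit keeps strand, but whether the counting used strand is not given in the sources used here. What share of the G6pdx values comes from Ikbkg reads was not tested. These neighbours and copies were singled out for their shared sequence, whatever their values.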

How the data were processed

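RNA was measured in 12 libraries of 4T1 cells, 3 in each of 4 groups. Per the labels and the study's methods, libraries were made with a stranded total RNA kit after removal of ribosomal RNA, paired reads were aligned to GRCm38 with HISAT2 and TopHat, and reads were counted per gene with featureCounts. The authors deposited the signal as normalized counts, that is gene counts divided by 1 factor for each library, with DESeq2 as the tool named for it. Dividing each library's values by its step gave whole reads within 0.001 for 100% of values, from which depth (12540160 to 20066659 reads in genes) and the count tests were taken.

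The test covered 11663 protein-coding genes, those that reached 10 normalized counts in 3 or more libraries. log2(normalized count + 1) was fitted with limma 3.58.1 (R 4.3.3) with a mean for each of the 4 groups and an intensity trend, and p-values were adjusted over all tested genes by the method of Benjamini and Hochberg, with a threshold of 0.05. The 6 comparisons were each treatment against Ctr, IR -SG against IR and against -SG, and the interaction. Fold changes are on the log2(value + 1) scale, which understates those of low genes such as Me3. The fitting code was tested on simulated data with known changes. Alternatives were other pseudocounts (0.5 and 8), no filter, a filter on a mean of 100, other scalings (same total, TMM, quantile), no trend, only the compared groups, all genes, a replicate block, edgeR 4.0.16, DESeq2 1.42.0, a 2-fold threshold and leaving out each library. Counts of alternatives for a gene refer to the adjusted p alone, which for the 2-fold threshold is that of the main fit.

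Levels per length used merged exons of GENCODE release 21 for mouse or the longest coding transcript. Promoters came from RefSeq (GRCm38.p6). The text names all 10 genes, and from each of the 4 lists the 3 tested genes with the largest absolute log2 fold change in -SG and in IR -SG against Ctr; Noct, Shpk and Cbr3 in IR were added after their values were seen. 1 gene that this rule names is not reported here. Genes most alike were the 2 with the highest Pearson r over 12 libraries among genes outside the lists whose mean reached 100. The genes and lists were chosen with earlier results of these data known.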

Additional observations from a re-analysis of the deposited data

How the results depend on the processing

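Calls of the starvation comparisons were stable for the genes named: Tkt, Taldo1, Rpia, Idh1, Nadk and Me1 had an adjusted p under the threshold in all 25 alternatives of -SG against Ctr, IR -SG against Ctr and IR -SG against IR, and Me3 in all 24 in which it was tested. The 2-fold threshold is counted among these with the adjusted p of the main fit, so its agreement was fixed in advance. Applied to the calls, it left 1 gene higher (Me3) and 0 lower in -SG and in IR -SG against Ctr. In the other comparisons it left 0 and 0. Requiring a mean of at least 100 normalized counts removed Me3 from the test, which left 1 gene higher in -SG, IR and IR -SG against Ctr and in IR -SG against IR. In IR against Ctr, the number higher was 1 with quantile normalization and 0 with DESeq2, and 1 to 2 on leaving out a library. The number lower was 2 with libraries scaled to the same total, 1 with quantile normalization and 2 to 4 on leaving out a library. The causes were not tested. The single reversal was Me3 in IR against Ctr under quantile normalization (-0.021). Leaving out -SG replicate 6 gave 6 genes lower in place of 5 in -SG against Ctr, with G6pdx added at -0.10.

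The replicate numbers of Ctr and IR, and of -SG and IR -SG, were not taken as pairs: no label says that a number marks a shared culture, and the correlations of deviations from the group means ran from -0.09 to 0.07. As a hint from the data, each of the 3 numbers of Ctr and IR correlated best with its own number (0.03 to 0.07), and none of the 3 of -SG and IR -SG did. With a replicate block, 2 of the 10 genes were higher and 4 lower in IR against Ctr, 1 and 2 in IR -SG against -SG, and 0 and 0 in the interaction, as without it. Over all genes the block gave 6026 calls against 6268, 4637 against 5028, and 985 against 1326. Me3, at 33.8 to 105 normalized counts, had the largest SE of the 10 genes (0.13).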
